A study of Mus musculus with 2 samples.

Results

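The insulin-like growth factor (IGF) genes examined here are 10 named genes out of the 17260 in the deposited count table: the ligands Igf1 and Igf2, the receptors Igf1r and Igf2r, and the binding protein genes Igfbp2 to Igfbp7. They were taken by gene symbol, and all 10 had a row. Messenger RNA was measured in mouse embryonic fibroblasts, cultured connective tissue cells of embryos at day 13.5, kept in DMEM with 10% serum. One group was wild type (WT) and the other was labelled Ahi1-/-, both on C57BL/6, with 1 library each made from 1 ug of total RNA. The product of Ahi1 sits in the ciliary transition zone, between the cilium and the cell body. How many embryos gave each culture, and which part of Ahi1 was targeted, are not stated in the sources used here.

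IGF1 and IGF2 are secreted peptides that drive growth and survival by activating IGF1R, a receptor tyrosine kinase that signals through the IRS adaptors, PI3K and AKT. IGF2R, which is also the cation-independent mannose 6-phosphate receptor, carries IGF2 to the lysosome for degradation. Most IGF in tissue is held by binding proteins, which keep it from the receptors or release it after cleavage by proteases. In the mouse, Igf2 is expressed from the paternal copy and Igf2r mainly from the maternal one, and Igf2 is a main growth factor of the fetus.

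The libraries held 19067504 (WT) and 20820756 expected counts. Ahi1 itself had 410 counts in WT against 370 in the other library (log2 ratio -0.16, 95% counting interval -0.37 to 0.05), so it did not check the label. The second library is therefore called the library labelled Ahi1-/-, and each direction follows that label and the column heads CON and EXP, read as control and experimental. A ratio is the count in that library over the count in WT, after scaling for library size. Its interval covers counting error only. Each genotype had 1 library and therefore no replicate check, no test and no p-value, so the values compare these libraries and not the genotypes. TPM, the share of transcripts scaled to a fixed total, is corrected for gene length and is used wherever one gene is set against another. All 10 genes reached 50 counts in 1 of the libraries, the minimum for a ratio to be counted as 2-fold apart.

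The library labelled Ahi1-/- held at least 2-fold more transcripts than WT of 9 of the 10 IGF genes, and 0 were 2-fold lower. Igfbp6 was the exception and lay within 2-fold. Over all 12075 genes with the minimum count, 16.0% were at least 2-fold higher and 10.3% at least 2-fold lower. The median log2 ratio of the 10 genes was 3.21, and that of the 14485 genes with at least 10 counts in both libraries together was -0.01. Added up, the 10 genes made 898 TPM in WT against 3148 TPM in the other library, 3.50-fold more. Binding protein genes spanned the widest range of differences, from 1.10-fold (Igfbp6) to 188-fold (Igfbp5) among those with more than 2 counts in WT. The genes were chosen with earlier results of these data known, so their counts and median are a description.

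**Figure D1:**
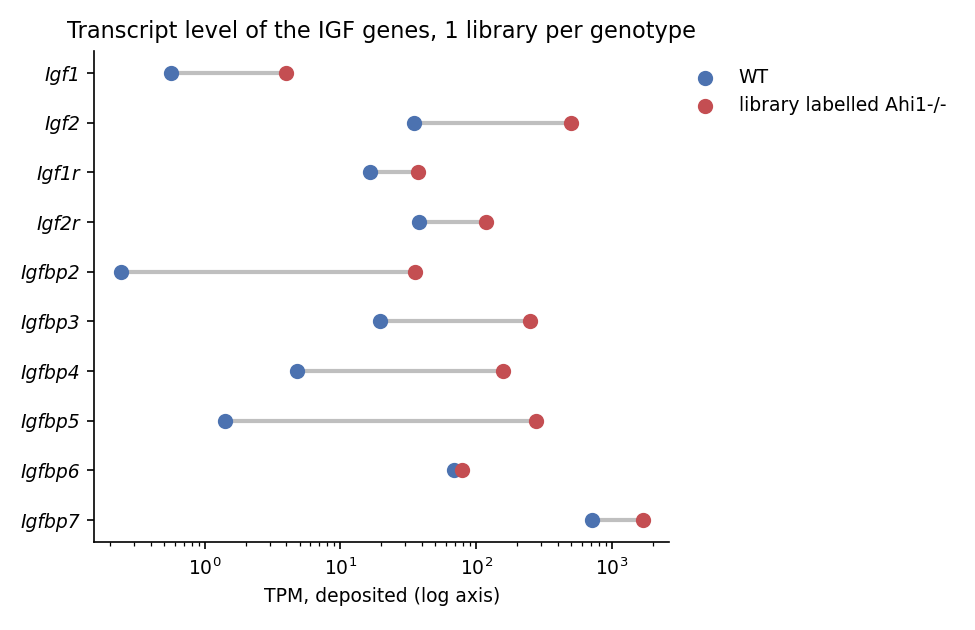
Deposited TPM (log axis) of each IGF gene in WT (blue) and the library labelled Ahi1-/- (red), 1 library each, joined by a grey line. Igfbp5 moves from 1.42 to 274 TPM, while the 2 points of Igfbp6 (68.8 and 78.1 TPM) nearly overlap.

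Both ligand genes had more transcripts in the library labelled Ahi1-/-, and Igf2 was far the more abundant in each library. Igf2 had 879 counts in WT against 15471 in the other library, or 34.6 and 495 TPM. By TPM it stood at rank 4733 of 17260 genes in WT and at rank 292 in the other library. Its ratio was 17.4-fold (log2 4.12, interval 4.03 to 4.22). Igf1, which is made by many mesenchymal cells and by the liver, had 36 and 255 counts, or 0.56 and 3.96 TPM. The Igf1 ratio was 7.02-fold (log2 2.81, interval 2.30 to 3.36). Per length, Igf2 exceeded Igf1 by 61.7-fold in WT and by 125-fold in the other library.

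The Igf2 ratio depended on the unit. On the TPM scale it was 14.3-fold, against 17.4-fold from the counts. Counts per TPM reflect the transcript length that the authors' quantification assigned to a gene, and for Igf2 this length was 1.26-fold greater in the library labelled Ahi1-/- (log2 0.33). Among 8716 genes with at least 200 counts in both libraries, 95% of such shifts lay between -0.09 and 0.06 on the log2 scale, and 20 genes (0.229%) had one as large as that of Igf2 in either direction. Igf2 is transcribed from several start sites, and the RefSeq table (GRCm38.p6) gives 4 of them. Which transcripts were present was not tested, since the files hold 1 value per gene.

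Both receptor genes were higher, by less than the ligands. Igf1r, the signalling receptor, had 1769 and 4012 counts (16.6 and 37.1 TPM), a 2.25-fold difference (log2 1.17, interval 1.09 to 1.25). It lay close to the 2-fold line. With the median of its chromosome subtracted, its log2 ratio was 0.96 and 8 members were past 2-fold. Igf2r, the clearance receptor, had 3151 and 9653 counts (37.9 and 119 TPM), a 3.04-fold difference (log2 1.60, interval 1.54 to 1.66). It lies on chromosome 17, whose genes had a median log2 ratio of -0.32, and its ratio relative to that median was 1.92. The noncoding gene Airn overlaps Igf2r on the opposite strand, and whether counting used strand is not stated in the sources used here. Reads from the stretch where the pair overlaps therefore cannot be told apart. Per length, Igf2r exceeded Igf1r by 2.28-fold in WT and 3.21-fold in the other library. Igf2 transcripts were 0.912 times as abundant as Igf2r transcripts in WT and 4.16 times as abundant in the other library. Set against Igf1r, they were 2.08 and 13.3 times as abundant.

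**Figure D2:**
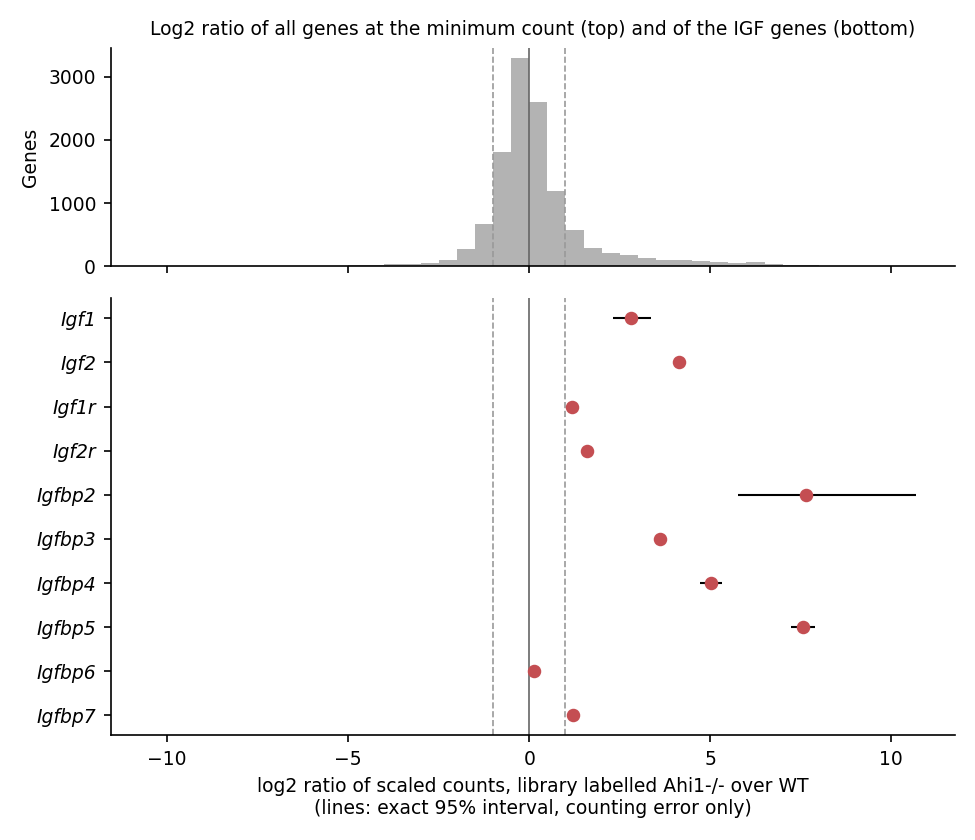
Top, number of genes by log2 ratio (library labelled Ahi1-/- over WT) for the 12075 genes that reached 50 counts in 1 of the libraries; bottom, the 10 IGF genes with their exact 95% counting intervals. Dashed lines mark 2-fold: 9 of the 10 points lie to the right of the upper one, and the interval of Igfbp2 (5.78 to 10.69) is the widest because WT had 2 counts.

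Of the binding protein genes, 4 differed by more than 10-fold, and 2 of them, Igfbp2 and Igfbp5, are neighbours on chromosome 1. Igfbp5, whose product binds extracellular matrix and is abundant in muscle and bone, had 77 counts in WT against 14570 in the library labelled Ahi1-/- (1.42 and 274 TPM). That is 188-fold (log2 7.55, interval 7.23 to 7.89). Igfbp2, whose product carries an RGD motif that binds integrins, had 2 and 403 counts (0.24 and 35.6 TPM), a log2 ratio of 7.64 with an interval of 5.78 to 10.69. Its TPM ratio, resting on the same 2 counts, was 148-fold. These ratios stood at ranks 41 and 36 of the 12075 genes, counted from the highest. Igfbp4, which encodes a soluble inhibitor of IGF action, had 91 and 2971 counts (4.75 and 158 TPM), a 32.4-fold difference (log2 5.02, interval 4.71 to 5.33). Igfbp3, the main carrier of IGF in blood and a gene induced by TGF-beta and p53 in many cells, had 440 and 5439 counts (19.5 and 248 TPM). Its ratio was 12.3-fold (log2 3.61, interval 3.47 to 3.76).

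The other binding protein genes, Igfbp7 and Igfbp6, were the most abundant of the 10 in WT and differed least among the binding proteins. Igfbp7, whose product binds insulin and IGF only weakly and is found in basement membranes, had 7172 and 16646 counts (714 and 1698 TPM), 2.30-fold apart (interval 2.24 to 2.37). Igfbp7 stood at rank 193 of all genes by TPM in WT and at rank 95 in the other library. Igfbp6, whose product prefers IGF2 to IGF1, had 799 and 886 counts (68.8 and 78.1 TPM). Its ratio was 1.10-fold, and its interval (log2 -0.0034 to 0.28) included 0.

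The upstream sequences of the 3 binding protein genes with the largest ratios and of Igfbp6, the gene within 2-fold, are shown because they allow the starts of high-ratio and near-equal genes to be compared. Each is the 100 bases before the RefSeq transcription start on build GRCm38.p6, 5′ to 3′ on the gene's strand. That build is not the one in the submitters' notes. Capitals mark matches, on either strand, to the motifs listed after the sequences.
Igfbp2, chr1:72824380-72824479, plus strand: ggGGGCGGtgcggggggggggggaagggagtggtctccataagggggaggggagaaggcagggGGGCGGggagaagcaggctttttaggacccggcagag
Igfbp5, chr1:72874866-72874965, minus strand: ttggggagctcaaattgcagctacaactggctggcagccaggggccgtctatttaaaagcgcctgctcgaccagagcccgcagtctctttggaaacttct
Igfbp4, chr11:99041144-99041243, plus strand: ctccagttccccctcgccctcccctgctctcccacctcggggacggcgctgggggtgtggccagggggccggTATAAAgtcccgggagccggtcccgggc
Igfbp6, chr15:102144086-102144185, plus strand: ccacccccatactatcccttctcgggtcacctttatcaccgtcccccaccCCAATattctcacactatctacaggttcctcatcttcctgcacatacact

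Of 5 motifs searched on both strands, TATAAA (the TATA box) occurred once within these 100 bases in the family, in Igfbp4, where it starts at base -28 on the gene's strand. It was present in 5.56% of 32851 RefSeq windows of the same length. The GC box GGGCGG, the site of Sp1 factors, was present in 6 of the 14 windows of the 10 genes and in 24.7% of all windows. Igfbp2 held it at bases -98 and -37. The CCAAT box was present in 1 of the 14 windows, that of Igfbp6 at base -50, and in 18.9% of all windows. GGAATG, bound by TEAD factors, and GTAAACA, bound by FOXO factors, were in 0 of the 14 windows. They were in 4.71% and 1.12% of all windows. In the longer search over 250 bases upstream, GGAATG was in 4 of the 14 windows, those of 3 Igf2 start sites and of Igfbp5, and in 12.6% of all windows. Over those 250 bases GTAAACA was in 0 of the 14 and in 3.17% of all, TATAAA in 2 and 12.4%, GGGCGG in 6 and 32.7%, and CCAAT in 3 and 33.9%. Igfbp2 has 2 start sites in the table, and the first is shown. A missing match says only that the letters are not in the window.

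The make-up of the binding protein transcripts differed between the libraries. Together the binding protein genes made 809 TPM in WT and 2493 TPM in the library labelled Ahi1-/-. Igfbp7 supplied 88.3% of this in WT and 68.1% in the other library. Without Igfbp7, the sum was 94.7 TPM in WT and 794 TPM in the library labelled Ahi1-/-, 8.38-fold more. Of that smaller sum, Igfbp6 made 72.6% in WT and 9.84% in the other library. Igfbp5 made 1.5% and 34.5%, Igfbp3 20.6% and 31.2%, Igfbp4 5.01% and 19.9%, and Igfbp2 0.253% and 4.48%. Igf2 transcripts amounted to 0.365 of this sum in WT and 0.623 in the other library.

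**Figure D3:**
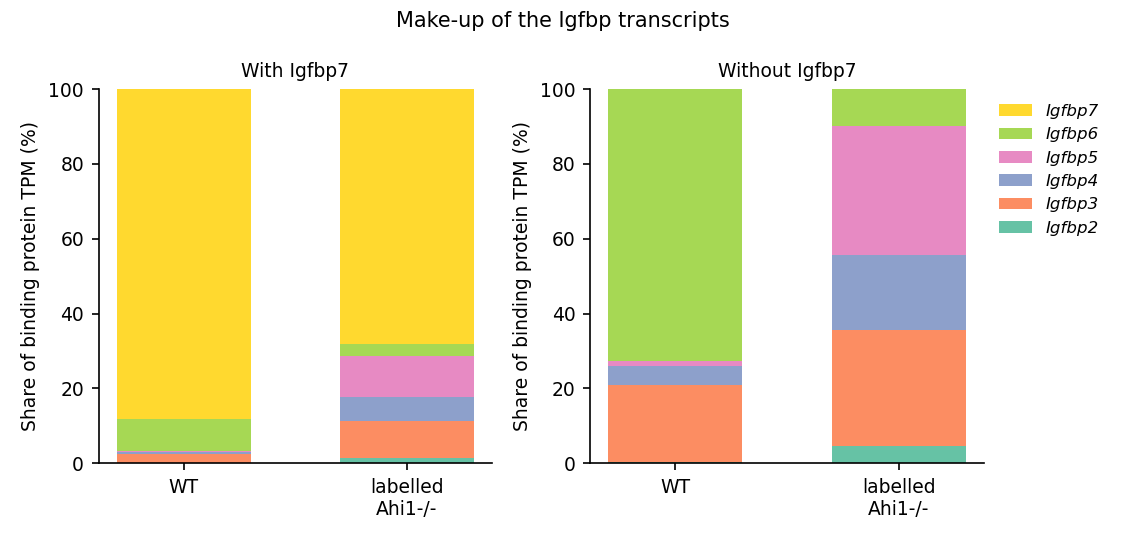
Share (%) of the summed TPM of the Igfbp genes that each gene supplied, with Igfbp7 (left) and without it (right), in WT and the library labelled Ahi1-/-. Without Igfbp7, the share of Igfbp6 is 72.6% in WT and 9.84% in the other library, where Igfbp5 (34.5%) and Igfbp3 (31.2%) are the largest.

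In order of TPM, WT ran Igfbp7, Igfbp6, Igf2r, Igf2, Igfbp3, Igf1r, Igfbp4, Igfbp5, Igf1 and Igfbp2. The library labelled Ahi1-/- ran Igfbp7, Igf2, Igfbp5, Igfbp3, Igfbp4, Igf2r, Igfbp6, Igf1r, Igfbp2 and Igf1. Without replicates there is no spread against which to judge neighbours in these orders. The closest pairs were Igf2r and Igf2 in WT (37.9 and 34.6 TPM) and Igf1r and Igfbp2 in the other library (37.1 and 35.6 TPM).

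The authors' second table, which gives FPKM values for 3872 genes, holds 8 of the 10. Its smallest absolute log2 ratio among genes above 0 in both libraries was 1.00, so it appears to list genes at least 2-fold apart in FPKM. Igfbp6 and Igf1r are not in it. From its TPM, Igf1r would have an FPKM ratio of 1.99-fold, just under that line. In FPKM, Igfbp5 was 172-fold higher (0.70 and 121), Igfbp2 130.4-fold (0.12 and 15.7), Igfbp4 29.9-fold (2.33 and 69.6), Igf2 12.8-fold (17.0 and 217) and Igfbp3 11.3-fold (9.60 and 109). Igf1 was 6.44-fold higher, Igf2r 2.81-fold and Igfbp7 2.13-fold.

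Among proteases that cut the binding proteins and inhibitors of these proteases, the largest difference was in Pappa. Of 8 genes, 6 had the minimum count. Of those 6, 3 were at least 2-fold higher and 0 lower, against 16.0% and 10.3% of all genes. The median log2 ratio over all 8 was 1.17. It lay between Pappa2 (10 and 21 counts) and Adam28 (9 and 22), both below the minimum count and named after their values were seen. Pappa encodes pappalysin, which cleaves IGFBP4 and IGFBP5 and so frees IGF. It had 24 and 2864 counts (0.23 and 28.5 TPM), a 118-fold difference (log2 6.89, interval 6.31 to 7.53). Stc2, whose product inhibits pappalysin, had 49 and 686 counts (43.0 TPM in the latter), 13.9-fold higher. Adam12, a metalloproteinase that cleaves IGFBP3 and IGFBP5, had 536 and 5495 counts, 10.2-fold higher. Pappa, its inhibitor Stc2 and the substrates Igfbp4 and Igfbp5 were thus all among the higher transcripts. Stc1, another inhibitor in the list and named after its values were seen, was not. It had 891 and 700 counts (25.8 and 20.7 TPM), a log2 ratio of -0.36. Htra1 (log2 0.56) and Adam9 (log2 0.81), also named after their values were seen, lay within 2-fold.

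Plagl1 and Hmga2 had the largest ratios among factors that act on the Igf2 gene, on its messenger RNA or on the proteins that bind this RNA. Of 6 genes for Igf2 mRNA-binding proteins and their activators, 5 had the minimum count. Of those 5, 3 were higher and 0 lower, against 16.0% and 10.3% of all genes. The median log2 ratio was 1.48. Plagl1, an imprinted zinc finger factor that activates the Igf2 locus, had 71 and 1199 counts, 16.7-fold higher. Hmga2, a chromatin protein that promotes expression of Igf2bp2, had 1155 and 7725 counts, 6.63-fold higher. Igf2bp2 itself, the most abundant of the list in WT and named after its values were seen, had 4733 and 3544 counts, a log2 ratio of -0.43. Igf2bp3 had 555 and 1562 counts, 2.79-fold higher.

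In the intracellular relay below the receptor, 1 of 29 adaptor, PI3K, AKT and mTOR genes was at least 2-fold higher and 4 were lower, with a median log2 ratio of -0.12. Over all genes, 16.0% were higher and 10.3% lower. The share of lower genes in the relay was thus near that of all genes, and the share of higher genes (1 of 29) was below it. The higher one was Irs1, the docking adaptor of IGF1R, with 144 and 889 counts (1.69 and 10.7 TPM), 6.12-fold apart. Pik3cd, a PI3K catalytic subunit found mostly in leukocytes, was 2.99-fold lower (459 and 155 counts). Pik3cb, another catalytic subunit, was 2.24-fold lower (355 and 160). The regulatory subunit Pik3r2, named after its values were seen, was 2.03-fold lower (3699 and 1840). Among 8 inhibitors of receptor signalling, 1 was higher and 0 lower (median 0.21). It was the adaptor Grb14, which blocks insulin and IGF receptor kinases, with 652 and 2037 counts, 3.10-fold higher.

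Of 16 FOXO target genes with the minimum count, which AKT signalling holds down, 4 were higher and 3 lower, against 16.0% and 10.3% of all genes. The median log2 ratio over 17 measured was -0.20. The lower ones, named after their values were seen, were the stress gene Sesn1 (2.30-fold), Ccng2 (2.01-fold) and the cell cycle inhibitor Cdkn1b (2211 and 1115 counts), and with upper-quartile scaling 1 was lower in place of 3. The ubiquitin ligase Fbxo32 was 6.69-fold higher (194 and 1309 counts), Txnip 3.17-fold (1068 and 3412), the repressor Bcl6 2.97-fold (232 and 696) and Gadd45a 2.56-fold (168 and 434). Gadd45a is a p53 target as well.

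The remaining parts of the axis lay within 2-fold or were barely detected. For comparison, 16.0% of all genes were higher and 10.3% lower. Insr, the insulin receptor, had 893 and 634 counts (log2 -0.51, interval -0.66 to -0.36), opposite in sign to Igf1r. Insrr had 3 counts in WT and 1 in the other library. In the growth hormone axis, 0 of 5 genes were 2-fold apart (median 0.27). Ghr, the growth hormone receptor, had 1138 and 1555 counts and its kinase Jak2 1596 and 1947. In the mannose 6-phosphate pathway, which supplies the other cargo of IGF2R, 0 of 4 were 2-fold apart (median 0.42). M6pr, the cation-dependent receptor, had 1921 and 3144 counts (log2 0.70) and Gnptab 1071 and 1817 (log2 0.75). Genes for insulin, Igfbp1 and the noncoding H19 and Airn were looked up, and none had a row.

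**Figure D4:**
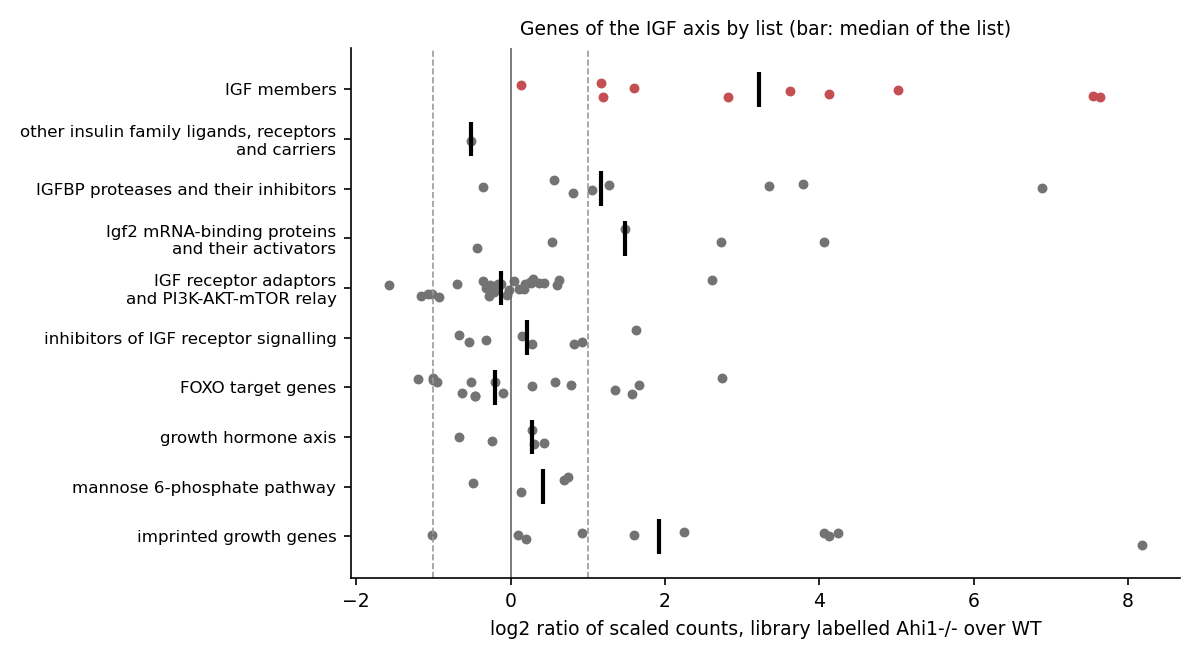
Log2 ratio (library labelled Ahi1-/- over WT) of each gene with at least 10 counts in both libraries together, by list, with the median of each list as a bar and dashed lines at 2-fold. The medians of the 10 IGF genes (red, 3.21), the proteases (1.17) and the Igf2 regulators (1.48) lie right of the upper 2-fold line, with Stc1 (-0.36) and Igf2bp2 (-0.43) left of 0, and the median of the 29 relay genes is -0.12.

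The imprinted growth genes in the table number 10 and include the members Igf2 and Igf2r. Of these 10, 6 were higher and 1 was lower, against 16.0% and 10.3% of all genes. Their median log2 ratio, members included, was 1.92. Apart from these members, the higher genes were Ndn, Peg3, Plagl1 and Mest (56 and 268 counts, 4.74-fold), the last named after its values were seen. Grb10 (log2 0.92), Cdkn1c (0.20) and Gnas (0.09), also named after their values were seen, lay within 2-fold. Ndn, a paternally expressed gene of the Prader-Willi region, had 6 and 1757 counts (290.2-fold). Peg3 had 197 and 3758 (18.9-fold) and Plagl1 16.7-fold, near the 17.4-fold of Igf2. The lower one, named after its values were seen, was Dlk1 (2274 and 1135 counts, 2.02-fold), and with upper-quartile scaling 0 were lower. Whether a copy of Igf2 that is normally silent was expressed cannot be read from counts per gene.

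Among the 36 distinct genes with the minimum count that were the 2 nearest on either side, and were not members, 8 were higher, 3 lower and 25 within 2-fold, with a median log2 ratio of 0.07. The higher ones made 22.2%, against 16.0% of all genes. This comparison was chosen after the values were seen. The higher ones were Arrdc4 near Igf1r (7 and 563 counts, 79.7-fold), Adcy1 (4 and 98, 24.3-fold) and Ramp3 (19 and 92, 4.80-fold) near Igfbp3, Adgrl3 beside Igfbp7 (2.40-fold), Lsp1, Cd81 and Tssc4 (3.50-fold) near Igf2, and Tns1 beside Igfbp5. The lower ones were Map3k4 beside Igf2r, Top2a beside Igfbp4 and Gm40814 near Igfbp3. Between Rpl37a (log2 -0.18) and Tns1 (log2 1.96) lie Igfbp2 and Igfbp5, at 7.64 and 7.55. Beside Igfbp4, Top2a was 2.47-fold lower and Smarce1 lay at log2 0.35. Igf2 was flanked by Mrpl23 (log2 0.08) on one side and by Cd81, 5.33-fold higher, on the other, with Lsp1 22.2-fold higher beyond Mrpl23. Igf2r stood above all 4 of its flanking genes, which ranged from log2 -1.05 (Map3k4) to 0.06 (Agpat4).

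**Figure D5:**
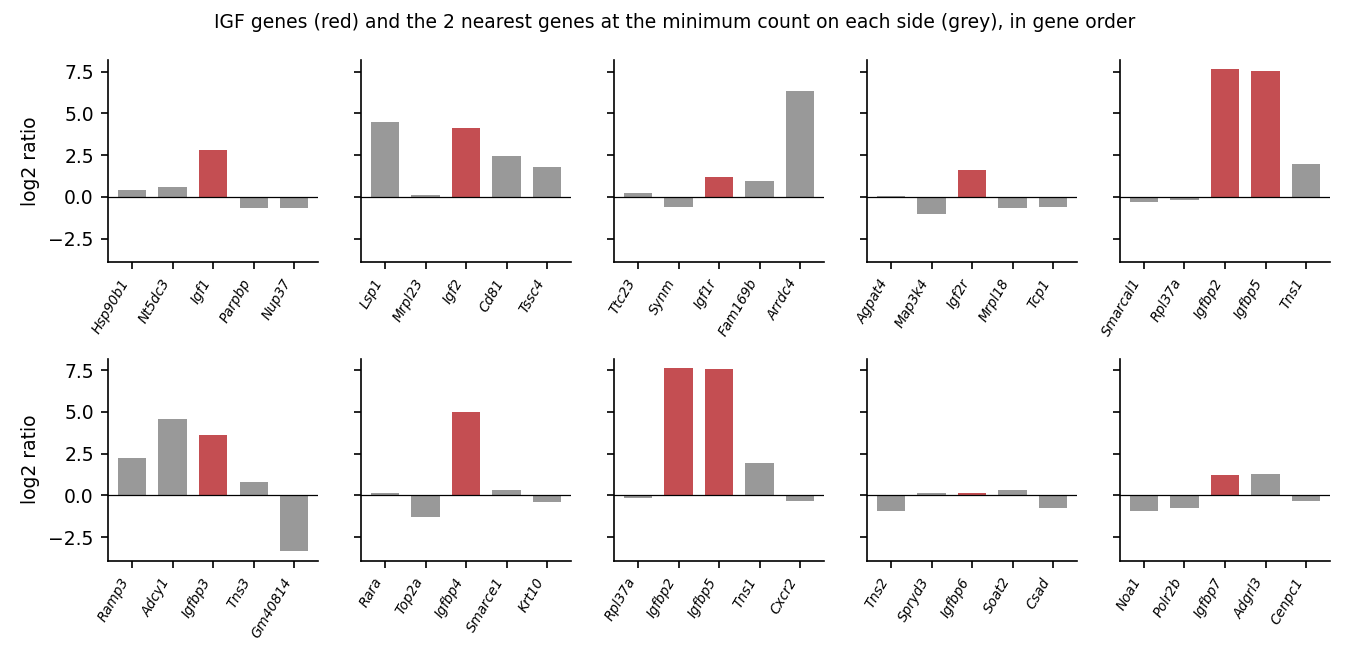
Log2 ratio (library labelled Ahi1-/- over WT) of each IGF gene (red) and of the 2 nearest genes with at least 50 counts on each side (grey), in chromosome order with distances not drawn. Igfbp2 and Igfbp5 (7.64 and 7.55) have a panel each, and each is also drawn in red in the panel of the other. Both stand above Rpl37a (-0.18) and Tns1 (1.96).

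By the size of the ratio at a like abundance, the genes nearest to the IGF genes were named by rule. Likeness here is the distance between 2 log2 ratios over 2 libraries, and nothing more. For Igfbp4 they were Galnt18 (log2 5.01) and Cthrc1 (4.98), for Igfbp3 Gas6 (3.49) and Ccng1 (3.49), and for Igf2 Ccnd2 (4.36) and Fbln5 (3.88). Igfbp5 had no close match: the nearest were the smooth muscle gene Cnn1 (8.19) and the basement membrane collagen Col4a1 (6.88). Igfbp2 was nearest to Rtl8c (7.75) and Hoxa11 (7.45), which had 1 and 3 counts in WT. Igf1 was nearest to Itga4 (2.82) and Dnm3 (2.85). Nearest to Igf1r were Dlc1 and Adamtsl5 (both 1.17), and nearest to Igf2r were Tubb3 (1.61) and Ginm1 (1.59). For Igfbp7 they were Rcn3 (1.12) and Fstl1 (1.10).

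Marker genes of cell types differed between the same libraries. The counts below stand beside 16.0% higher and 10.3% lower over all genes with the minimum count. Fibroblast markers were present in both, with 8 of 11 higher and 1 (S100a4) lower in the library labelled Ahi1-/-. Their summed level was 11535 TPM in WT and 23233 TPM in the other. Over both libraries together, Col1a1 (91910 and 367100) and Col1a2 (29308 and 193937) had the most counts. By TPM the largest in WT was Vim, named after its values were seen, which lay within 2-fold (4546 and 4710 TPM). Smooth muscle and mural markers were higher in 9 of the 9 with the minimum count, from a sum of 408 to 9730 TPM, led by Acta2 (6025 and 102889 counts) and Tagln (468 and 30337). Chondrocyte markers were lower in 9 of 10, from 1075 to 61.2 TPM. Those with the most counts over both libraries together were Col2a1 (38926 and 1572) and Col11a2 (1931 and 131). Red blood cell markers were lower in 6 of 6, from 1687 to 22.6 TPM. Hba-a1 (5284 and 78) and Hbb-b1 (1998 and 9) had the most counts over both libraries together. The part of these differences in the IGF values was not tested, and in whole cultures fewer cells of a type and less RNA per cell cannot be told apart.

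Markers of other cell types were mostly at low levels. Their counts, too, stand beside 16.0% higher and 10.3% lower over all genes with the minimum count. Hepatocyte markers summed to 3.08 TPM in WT and 5.95 TPM in the library labelled Ahi1-/-. Alb and Ttr were at 0 in WT and Afp was at 0 in the other library, and Trf had 33 and 37 counts. Hnf4a (25 and 59 counts), the only one with the minimum count, was 2.34-fold higher. Of 10 skeletal muscle and myoblast markers, 6 were in the table, with Myh3 and Ckm at 0 in WT and 3 and 1 counts in the other library. Des (84 and 1240 counts) and Acta1 (23 and 620) were higher, and both are also made by smooth muscle-like cells. Endothelial markers summed to 3.19 and 2.78 TPM, with Tie1 at 0 in the library labelled Ahi1-/-, Kdr at 20 and 20 counts and Erg at 13 and 31. Leukocyte markers summed to 40.1 and 57.1 TPM, with 1 higher (Lyz2, 96 and 315 counts) and 1 lower (Cd14, 199 and 85). Epithelial markers summed to 69.9 and 107 TPM, with 5 of 6 higher (Epcam, Cdh1, Krt8, Krt18 and Cldn7), Krt5 and Cldn4 at 0 in WT, and Krt19 (592 and 680) and Krt8 (203 and 421) the most abundant. Their part in the IGF values was not tested.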

How the data were processed

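Messenger RNA was measured in 2 libraries, 1 per genotype. The authors deposited expected counts and TPM for 17260 genes, per the file headers, and FPKM for 3872 genes in a second deposited table. All 6 value columns were used and 0 were left out. Of the deposited counts, 65.1% (WT) and 64.4% were whole. Build mm8 and the tools RSEM 1.2.12, HISAT2 2.0.4 and Bowtie2 2.2.5 are listed, without roles, per the submitters' processing notes. The annotation, filters and use of strand are not stated in the sources used here.

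Expected counts were rounded and scaled with the TMM factors of edgeR 4.0.16 in R 4.3.3. Ratios carry exact Clopper-Pearson 95% intervals for counting error only. These treat each read as an independent draw. Reads without molecular identifiers are not independent molecules, so the intervals may be too narrow even for counting error. Where 1 library had 0 counts of a gene, 3 were put in its place (0.151 CPM in WT, 0.150 CPM in the other). A gene was counted at 2-fold or more if either library reached 50 counts. List medians cover genes with at least 10 counts in both libraries together. The calculation (Python 3.11.15, numpy 2.4.6, pandas 2.3.3, scipy 1.17.1) was tested on simulated data. Chromosomes and gene order came from GRCm38.p6, in which 17210 of 17260 identifiers were found.

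The named genes are the members, Ahi1, up to 4 genes per list with the largest ratios at 2-fold or more (otherwise up to 2 with the most counts), for each marker list the genes at 0 and the 2 with the most counts, and for each member past 2-fold the 2 genes nearest in ratio with at least 200 counts and a like TPM. Flanking genes fall outside this rule. Members and lists were chosen with earlier results of these data known. Alternatives were other scalings (total counts, upper quartile, size factors of DESeq2 1.42.0), the unit, the minimum count, the fold and the chromosome median. The values of 1 gene counted in the list of adaptor, PI3K, AKT and mTOR genes are not reported here.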

Additional observations from a re-analysis of the deposited data

How the results depend on the processing

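Of 142 values recomputed under the alternatives, 115 stayed the same by the limits used (a ratio inside its counting interval, a count within 1.5 times, a median within 0.1), 27 moved and 0 reversed. The number of IGF genes at least 2-fold higher was 9 under every scaling, both TPM settings and both other minimum counts, 8 with chromosome medians subtracted (Igf1r at log2 0.96) and 6 at 4-fold; 0 were lower in any. Their median log2 ratio was 3.10 with total counts, which lowered all ratios by 0.11 on the log2 scale, 3.07 with chromosome medians subtracted and 2.63 on TPM with a pseudocount of 1. That pseudocount brought Igfbp2 to 4.88, Igfbp5 to 6.83 and Igf1 to 1.67, beside WT levels of 0.24, 1.42 and 0.56 TPM. Over all genes, 1934 of 12075 were higher in the main setting. That number was 1762 to 2004 under the other scalings and TPM settings, and 1917 with chromosome medians subtracted. It was 1078 at 4-fold, 2741 with a minimum of 10 counts and 1266 with a minimum of 200. The number lower was 1249 in the main setting, 1140 with upper-quartile scaling, 2606 at 1.5-fold and 299 at 4-fold. With upper-quartile scaling 1 FOXO target and 0 imprinted growth genes were lower. With a minimum of 10 counts 5 protease genes were higher, the added ones being Pappa2 (10 and 21 counts) and Adam28 (9 and 22). Depth limits Igfbp2 most, with 2 counts in WT. No paired analysis was possible because each genotype has 1 library, and for the same reason no library could be left out.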
